A study of Mus musculus with 6 samples.

Results

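Mrgprb1, Mrgprb2 and Mrgprx2 are Mas-related G protein-coupled receptor genes of mast cells, and they were followed through all 6 libraries of an embryonic mast cell series. The 3 genes were picked by name, as 3 of the 17909 genes of the deposited table and 3 of its 17 rows for the Mas-related family. Mas-related receptors sit in the cell membrane and respond to small peptides and cationic compounds, and the family as a whole is best known from itch and pain neurons. Mrgprb2 is the receptor through which mouse connective tissue mast cells degranulate without IgE, in response to substance P, compound 48/80 and several drugs. It is studied as the counterpart of human MRGPRX2, while the mouse gene that carries the symbol Mrgprx2 is a separate neighbour of it. Signals from Mrgprb2 run through Gq and Gi proteins, phospholipase C and calcium to granule release.

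All embryos had the mouse background C57BL/6xFVB, and cells had been sorted from them with Csf1r-iCre fate mapping, which marks descendants of cells that once used the Csf1r promoter. The fetal liver at E11.5 gave 3 libraries: erythro-myeloid progenitors (EMPs), mast cell progenitors (MCPs) and a library labelled MAC, for macrophages. From the limb came 1 MCP library of E11.5 and another of E14.5. The skin library, of E16.5, bears MCPs in its title and mast cells in its description. Every group was 1 library of bulk RNA, and no label says whether embryos were pooled, so no test could be made and every value below describes single libraries.

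The values are FPKM, the fragments of a gene per unit of transcript length and of library size, so they can be compared between genes. Estimated from the step size of the values, the libraries held 8700000 to 12400000 fragments. The skin library stood apart. In it 5675 genes had an FPKM of 1 or more, compared with 8270 to 8754 in the others, and Cpa3 alone made up 16.1% of its FPKM sum. Among 1660 genes that reached 10 in each of the 5 remaining libraries, skin had a 0 for 26, so a single 0 in that library does not show absence. All 9 mast cell markers were at 10 or more in skin, and 8 of 9 in the limb at E14.5. In the MAC library the macrophage and neutrophil gene Lyz2 read 2633 FPKM, while eosinophil and neutrophil granule markers summed to 9918 and 8106 FPKM, against 2724 for 9 macrophage markers.

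The 3 genes lie side by side on the minus strand of mouse chromosome 7, so the bases just before their start sites are shown for comparison. They are from the RefSeq promoter table of GRCm38.p6, read on the strand of the gene and ending at the base before the GENCODE start site, at chr7:48456343-48456592 for Mrgprb1, chr7:48558087-48558336 for Mrgprb2 and chr7:48499322-48499520 for Mrgprx2. Capitals mark TGACTCA, the letters that Fos and Jun dimers of the AP-1 family are known to bind.
Mrgprb1: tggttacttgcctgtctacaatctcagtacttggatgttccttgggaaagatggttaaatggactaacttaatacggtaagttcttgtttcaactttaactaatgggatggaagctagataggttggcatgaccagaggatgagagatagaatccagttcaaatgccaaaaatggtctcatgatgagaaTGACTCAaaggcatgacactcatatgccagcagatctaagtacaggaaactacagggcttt
Mrgprb2: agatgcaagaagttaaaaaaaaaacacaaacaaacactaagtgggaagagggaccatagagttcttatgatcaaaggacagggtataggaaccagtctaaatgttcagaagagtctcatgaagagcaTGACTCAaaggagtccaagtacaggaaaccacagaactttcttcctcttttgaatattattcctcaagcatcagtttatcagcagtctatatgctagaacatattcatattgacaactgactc
Mrgprx2: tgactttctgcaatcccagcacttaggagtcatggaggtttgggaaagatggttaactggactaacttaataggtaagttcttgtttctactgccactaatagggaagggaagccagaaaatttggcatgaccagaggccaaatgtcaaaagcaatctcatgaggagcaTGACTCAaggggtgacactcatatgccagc

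Upstream of Mrgprb1 and Mrgprx2 the letters were close copies. In RefSeq windows of 300 bases (250 before the start), 225 of 263 aligned bases were identical (85.6%), against 121 of 162 for Mrgprb1 and Mrgprb2 (74.7%) and 110 of 138 for Mrgprb2 and Mrgprx2 (79.7%). The longest run common to the upstream stretches of Mrgprb1 and Mrgprx2 was tgacactcatatgccagc. Mrgprb1 and Mrgprb2 had aagtacaggaaac in common, and Mrgprb2 and Mrgprx2 had gagcatgactcaa, which contains the AP-1 letters. TGACTCA or its reverse TGAGTCA occurred in the window of all 3 genes and in 5.2% of 32851 RefSeq promoter windows of this length. It began 61 bases before the start of Mrgprb1, 123 bases before that of Mrgprb2, and 30 bases before the GENCODE start of Mrgprx2, which is 81 before the RefSeq start. Mrgprb2 held another match that begins 6 bases before its start and runs into the transcript. The 3 genes are related in sequence, so their matches are not separate observations. The GATA-type letters TGATAA or TTATCA were in the window of Mrgprb2, and in 9.05% of all windows. AGATAA or TTATCT (11.2% of windows), CATGTG or CACATG (14.2%) and CACGTG (7.15%) were in none of the 3. A match in these letters is a description of the window and no measure of binding. Fos and Jun, looked up because of the match and after their values had been seen, were present throughout, Fos at 37.86 to 136.55 FPKM and Jun at 24.83 to 45.72.

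On GRCm38, Mrgprb1 (ENSMUSG00000070547.4) spans chromosome 7 from 48444113 to 48456342, Mrgprx2 (ENSMUSG00000074109.4) from 48478619 to 48499321 and Mrgprb2 (ENSMUSG00000050425.2) from 48550965 to 48558086. The start site of Mrgprb2 is 58.8 kb from that of Mrgprx2 and 102 kb from that of Mrgprb1. The longest transcript of each has 2 exons. The reading frame lies in 1 exon in Mrgprb2 (1014 bases) and in 2 exons in Mrgprb1 (1050 bases) and Mrgprx2 (1056 bases). Coding sequences of Mrgprb1 and Mrgprx2 were identical at 85.1% of aligned bases, those of Mrgprb1 and Mrgprb2 at 73.8% and those of Mrgprb2 and Mrgprx2 at 74.0%. Related copies can draw each other's reads. Here no stretch of 50 bases in any of the 3 transcripts was found in a transcript of another gene. The longest identical run between the transcripts was 39 bases, between Mrgprb1 and Mrgprx2, and 25 bases in both pairs with Mrgprb2.

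The receptors were near the detection limit in the liver and the early limb, low in the limb at E14.5 and high in skin. Mrgprb2, the degranulation receptor, read 0 FPKM in liver EMPs, 0.13 in the MAC library, 0.12 in liver MCPs, 0 in limb MCPs at E11.5, 0.81 in limb MCPs at E14.5 and 144.92 in skin. The liver values stood for about 3 fragments each, the limb value at E14.5 for 19 and the skin value for 2703. With 3 fragments as the limit for a listed 0, Mrgprb2 could still reach 0.119 FPKM in EMPs and 0.17 in the E11.5 limb.

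Mrgprb1, the neighbour at the other end of the trio, read 0 in EMPs, 0.02 in the MAC library, 0 in liver MCPs, 0 in the E11.5 limb, 0.34 in the E14.5 limb and 71.91 in skin. On its longest transcript (4185 bases) these were about 1 fragment in the MAC library, 16 in the limb and 2736 in skin. On its shortest (435 bases) they would be 1 in the limb and 255 in skin. Mrgprx2, which lies between them, read 0, 0.04, 0, 0, 0.1 and 12.2 in the same order, about 5 fragments in the E14.5 limb and 512 in skin on its longest transcript (4610 bases). If its shorter transcript (1930 bases) was the source, these were 2 and 211. Skin was the highest library for each of the 3 genes. The E14.5 limb read next for each, but for Mrgprx2 its 5 fragments stood against 2 in the MAC library, too few to set that order. The same holds for Mrgprb1 on its shortest transcript, with 1 limb fragment. The liver libraries and the E11.5 limb could not be ordered at these fragment numbers. In the plot of FPKM by library the skin bars exceed all others.

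**Figure D1:**
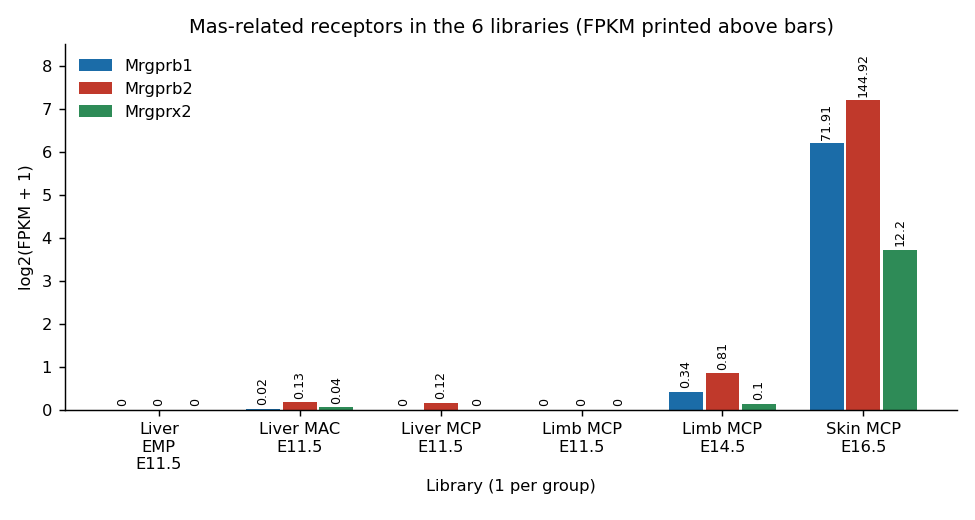
Expression of Mrgprb1, Mrgprb2 and Mrgprx2 in the 6 libraries as log2(FPKM + 1), with the FPKM printed above each bar and 1 library per group. The skin library at E16.5 reads 71.91, 144.92 and 12.2, and no other bar exceeds 0.81.

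Mrgprb2 was highest, Mrgprb1 next and Mrgprx2 lowest in the skin library. In skin Mrgprb2 was 2.015 times as high as Mrgprb1 and 11.9 times as high as Mrgprx2, with 95% Poisson intervals of 140 to 151 FPKM for Mrgprb2, 69.3 to 74.7 for Mrgprb1 and 11.2 to 13.3 for Mrgprx2. These intervals take the longest transcripts and cover counting error only, and reads from copies made by PCR are not independent molecules. They did not overlap in skin. In the E14.5 limb the level of Mrgprb2 was 2.38 times that of Mrgprb1 and 8.1 times that of Mrgprx2. There the interval of Mrgprb1 (0.195 to 0.554) overlapped both that of Mrgprb2 (0.497 to 1.29) and that of Mrgprx2 (0.0314 to 0.225). On its shortest transcript Mrgprb1 has 1 fragment in that library, and Mrgprx2 has 2 on its shorter one (0.0114 to 0.339 FPKM). Overlap of separate intervals does not decide whether levels differ, and the order in the limb was not tested. Among all genes of the skin library Mrgprb2 had rank 65, Mrgprb1 rank 132 and Mrgprx2 rank 1014 by FPKM.

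Skin cells at E16.5 were set against limb MCPs at E14.5, a step that changes tissue and age at once, so the effects of the pair cannot be told apart. All 3 receptors were higher in skin. Calls needed a difference of 2 or more in log2(FPKM + 1), which is 4-fold, and 10 FPKM or more in one of the pair of libraries. By this rule 49 of 2759 genes were higher in skin (1.78%) and 922 lower (33.4%). After scaling to equal sums the share of genes called higher was 6.86% (with 25.3% lower). By median-of-ratios scaling it was 12% (370 of 3094, with 8.69% lower), and the 3 receptors were called higher under both scalings. The receptors reach 10 FPKM through skin alone, with at most 0.81 in the limb, so a higher call follows once they pass. Their calls are thus no test against these shares, and a rank among the 49 genes called higher follows from the same filter. Mrgprb2 differed by 6.33 log2, rank 2 of the 2759, and the ratio of its FPKM values was 179 (95% interval from the fragments 112 to 292). Mrgprb1 differed by 5.77 log2, rank 4, with a ratio of 211.5 (130 to 370 on its longest transcript, and 56.0 to 12470 on its shortest, of 435 bases, where the limb value is 1 fragment). Mrgprx2 differed by 3.58 log2, rank 13, with a ratio of 122. Its interval was 53.8 to 391 on the longest transcript and 35.6 to 1082 on the shorter one. The intervals of the 3 ratios overlapped, and whether the size of the step differed between the receptors was not tested. In bulk RNA, a larger share of receptor-bearing cells and more RNA per cell cannot be told apart.

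**Figure D2:**
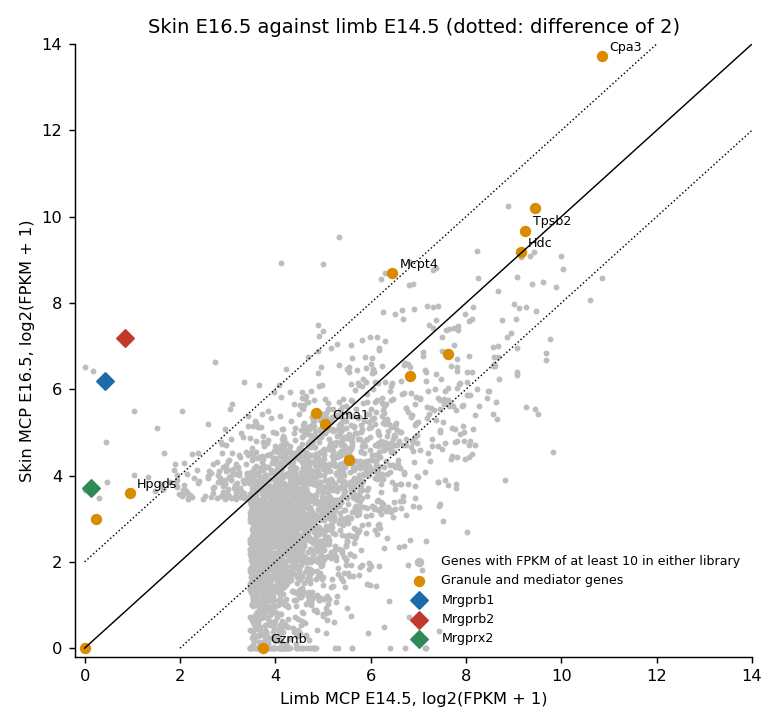
Each gene that reached 10 FPKM in one of these libraries, skin MCPs at E16.5 (vertical) against limb MCPs at E14.5 (horizontal), both as log2(FPKM + 1), with granule and mediator genes in orange and the receptors as diamonds. The solid line marks equality and the dotted lines a difference of 2. The receptors lie at the left edge, 3.58 to 6.33 above the line of equality.

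Against limb MCPs at E11.5 the 3 receptors were again called higher in skin, with a background of 121 of 2740 genes (4.42%, or 8.92% after scaling to equal sums and 15.8% by median of ratios). This comparison uses the same skin library, through which alone the receptors pass, so the higher calls again follow from passing. The limb listed all 3 at 0, so the ratios are lower bounds against 3 fragments in that library. Mrgprb2, with a single annotated transcript, was at least 852.5-fold higher. Mrgprb1 was at least 862-fold higher on its longest transcript and at least 80.3-fold on its shortest. Mrgprx2 was at least 161-fold higher, or 66.7-fold on its shorter transcript. The log2 differences were 7.19 for Mrgprb2, 6.19 for Mrgprb1 and 3.72 for Mrgprx2.

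Without the skin library no receptor reached the expression needed for a call. Between the limb at E14.5 and at E11.5, 0 of 3 were called, against 2.39% of 2970 genes called higher, 1.75% lower and 4.14% in either direction. Mrgprb2 at 0.81 was still at least 4.765-fold above the floor of the earlier limb library. Mrgprb1 at 0.34 was at least 4.08-fold above it on its longest transcript, but on its shortest the floor of 0.896 lies above its value, so that no separation is shown. None of the 3 was called between limb and liver MCPs at E11.5 (background 3.22%), between liver MCPs and EMPs (4.87%) or between liver MCPs and the MAC library (9.71%). Mrgprb2, with 3 fragments in liver MCPs and 3 in the MAC library, had a ratio of 0.923 (0.126 to 7.04), which leaves its direction undetermined.

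Skin held nearly all of the signal of these genes. Of the FPKM summed over the 6 libraries, 99.5% lay in skin for Mrgprb1, 99.3% for Mrgprb2 and 98.9% for Mrgprx2. The shares were similar after scaling to equal sums (99.7%, 99.6% and 99.4%) and by median-of-ratios scaling (99.8%, 99.7% and 99.6%). The measure was chosen after the values had been seen, and since the receptors reach 10 FPKM through skin alone, a high share follows from that. Among other genes at 10 or more in skin, Hs3st3a1, which encodes a heparan sulfate sulfotransferase, had 97.0% and Pmp22, a myelin and membrane protein gene, 96.65%. Anpep, the aminopeptidase CD13, had 92.8% and Slc6a4, the serotonin transporter, 92.3%.

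The receptors were set beside the granule and mediator genes of connective tissue mast cells. This list holds genes of granule proteins and also of enzymes that make mediators, such as Hdc. In the E14.5 limb Mrgprb1, Mrgprb2 and Mrgprx2 stood at 0.473%, 0.559% and 0.820% of their skin level. Tpsb2, a mast cell tryptase, was at 0.21 FPKM in the E11.5 limb, 605.34 in the E14.5 limb and 814.65 in skin, so that 74.3% of the skin level was present in the limb. Cma1, a chymase, went through 0, 31.92 and 35.36, which is 90.3%. Hdc, which makes histamine, was at 97.5% of its skin level. Mcpt4, the connective tissue chymase, read 0.12, 86.75 and 412.18, or 21.0%, and Cpa3, the mast cell carboxypeptidase, 416.9, 1855.57 and 13493.94, or 13.8%. These shares move with scaling. By median of ratios they were 27.0% for Tpsb2, 32.8% for Cma1, 35.4% for Hdc, 7.65% for Mcpt4 and 5.0% for Cpa3, and 0.172%, 0.203% and 0.298% for Mrgprb1, Mrgprb2 and Mrgprx2. Under both scalings the granule genes named here had higher shares of their skin level in the E14.5 limb than any of the receptors. Tryptase and chymase genes have close copies, and how reads were divided among these makes each of their values uncertain.

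**Figure D3:**
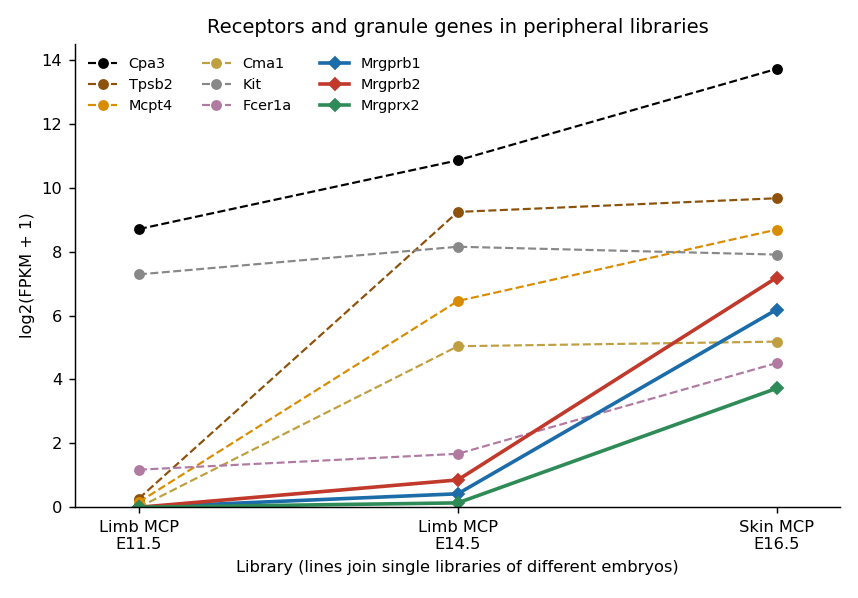
Log2(FPKM + 1) of the 3 receptors (solid lines, diamonds) and of Cpa3, Tpsb2, Mcpt4, Cma1, Kit and Fcer1a (dashed lines, circles) in the limb libraries of E11.5 and E14.5 and the skin library of E16.5, 1 library each. Tpsb2 and Cma1 reach 605.34 and 31.92 FPKM in the E14.5 limb, where the receptors are at 0.1 to 0.81.

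Of 14 granule and mediator genes, 11 reached the expression needed for a call between the 2 limb libraries. At E14.5, 8 were called higher than at E11.5 and 1 lower, beside 2.39% and 1.75% of all genes that passed. The list median was 2.09 log2 beside 0.01 for all genes. For passing genes it was 2.30 beside 0.10. Between the E14.5 limb and skin, 12 of 14 passed and 3 were called higher, beside 1.78% of all genes that passed. They were Cpa3, Mcpt4 and Hpgds, the prostaglandin D synthase (0.92 and 11.05 FPKM). Ctsg (0.18 and 6.93) was below the FPKM minimum, but was called higher after scaling to equal sums. Gzmb, a granzyme gene, was called lower, from 12.34 to a listed 0. The list median was 0.29 log2 beside −0.28 for all genes. For passing genes it was also 0.29, beside −1.42. By median-of-ratios scaling 6 were called higher, beside 12% of all genes that passed, and the list median was 1.73. After scaling to equal sums 4 were called higher, beside 6.86%, with a list median of 1.115. Of 5 genes of mucosal mast cells and basophils, 3 passed at each step. All of these were called higher at the first step and lower at the second, where 33.4% of all passing genes were lower. The 3 lower in skin were Mcpt1 (0.11 against 11.56), Mcpt2 (4.6 against 44.49) and Prss34 (12.05 against 60.43). By median of ratios their differences were −3.07, −1.72 and −0.84 log2 and none was called, Mcpt1 for its low level. After scaling to equal sums Mcpt1 (−5.09) and Mcpt2 (−2.42) were called lower and Prss34 (−1.49) was not. By that scaling 25.3% of all passing genes were lower.

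Of 22 other activating receptors of the mast cell surface, 10 reached the expression needed for a call between limb and skin. In skin 2 were called higher and none lower, beside 1.78% and 33.4% of all genes that passed. By median of ratios 4 of 10 were called higher, beside 12%, and the list median moved from −0.10 to 0.71. After scaling to equal sums 5 of 13 were called higher, beside 6.86%. Fcer1g (163.7 FPKM in the E14.5 limb and 449.02 in skin) and Ednra (28.76 and 82.61) were called higher under both of these scalings only. Fcer1a, the alpha chain of the IgE receptor, read 2.19 in the E14.5 limb and 21.85 in skin, and its limb level was 10.02% of that in skin. Hrh4, the histamine H4 receptor, read 2.12 and 11.91 (17.8%). Ms4a2, the beta chain of the IgE receptor, read 41.04 and 47.33, and Kit, the stem cell factor receptor, 283.93 and 239.34. Tacr1, the classical receptor for substance P, which was looked up after its values had been seen, was at 0.03 to 0.21 FPKM in all 6 libraries.

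Genes for signalling downstream of the receptors were measured in limb and liver libraries as well. Of 24 genes for Gq, phospholipase C and calcium entry, 5 reached the expression needed for a call between limb and skin and none of these was called. The median of the 24 was −0.34 log2. Gnaq, the Gq alpha subunit, read 8.6 to 19.01 FPKM across the 6 libraries. The largest differences of this list, both below the expression needed for a call, were Itpr3, an IP3 receptor (7.56 in the limb and listed at 0 in skin), and Stim2, a calcium sensor of the endoplasmic reticulum (3.25 and 0.05). After scaling to equal sums 18 genes of the list passed and this pair was called lower (−5.69 and −3.84 log2). By that scaling 25.3% of all passing genes were lower. Of 18 genes for Gi, beta-gamma and PI3K gamma, 12 reached the expression needed for a call, and 1 was called higher and 3 lower. Over all genes that passed, 1.78% were called higher and 33.4% lower. Gnai1, a Gi alpha subunit, read 0, 0.14 and 0.57 in liver EMPs, the MAC library and liver MCPs, 7.77 in the E11.5 limb, 78.23 in the E14.5 limb and 412.79 in skin. It was thus called higher at both peripheral steps. The 3 lower in skin were Gnai2 (47.86 against 199.42), Gnb2 (0.56 against 11.22) and Gng10 (2.68 against 14.98), a second Gi alpha subunit and members of the beta and gamma families. The Gi alpha genes Gnai3 (37.55 against 43.85) and Gnaz (30.49 against 32.13) were not called. Of 17 receptor kinases, arrestins and RGS genes, 8 reached the expression needed for a call. Of these Arrb2, which encodes beta-arrestin 2, was called lower (4.25 against 28.9) and none higher. By median of ratios the differences of Gnai2, Gng10 and Arrb2 were −0.59, −0.91 and −1.22 log2, below the threshold. Gnb2 still differed by −2.17 there but was under the FPKM minimum, and it was called lower after scaling to equal sums (−3.31). By median of ratios the list medians of −0.34, −0.53 and −0.20 became 0.14, 0.43 and 0.34. The Gi list then had 2 genes called higher and 0 lower, and the list of kinases, arrestins and RGS genes 3 and 0. Among the latter were Grk4 (2.43 log2) and Rgs1 (2.42). Over all genes 12% were called higher and 8.69% lower by that scaling. After scaling to equal sums the Gi list had 1 higher and 1 lower, and the other list 3 and 0. Over all genes that passed, 6.86% were then called higher and 25.3% lower.

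Precursors of peptides that act on Mas-related receptors read at most 9.97 FPKM in skin, and none of the 9 measured reached the level needed for a call between limb and skin. Tac1, the precursor of substance P, came nearest, at 0.02, 0.08, 0 and 0 FPKM in the liver libraries and E11.5 limb, 1.75 in the E14.5 limb and 9.97 in skin, a difference of 1.996 log2 just under both thresholds. Under both other scalings it passed and was called higher (3.23 log2 after scaling to equal sums, 3.27 by median of ratios). Penk, the enkephalin precursor, was the next largest difference of this list, at 2.59 in the limb and 0.23 in skin. Camp, on this list and also a neutrophil marker, was high in the liver, at 28.18 in EMPs and 147.16 in the MAC library. It read 6.45 in liver MCPs, 1.6 in the E11.5 limb, and 0 in the E14.5 limb and in skin. Calca, a marker of sensory neurons that also encodes CGRP, read 6.8 in the E14.5 limb and 25.04 in skin. The 7 measured sensory neuron markers summed to 6.95 and 25.6 FPKM, nearly all of it Calca, while Trpv1 and Scn10a were both at 0.03 in skin. The 7 keratinocyte markers reached at most 0.1 in skin, and 7 fibroblast markers summed to 12.1 there and to 65.0 in the E14.5 limb. The part of these cells in the Tac1 values was not tested.

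Of 17 transcription factors of mast cells, 8 reached the expression needed for a call between limb and skin. Of these 2 were called lower in skin and none higher, beside 33.4% lower and 1.78% higher over all genes that passed. The median of all 17 was −1.04 log2 beside −0.28 for all genes, and −0.08 under median-of-ratios scaling. For passing genes it was −1.34 beside −1.42, so by the deposited values the list median stood near the background. By median of ratios 2 of 7 passing factors were called lower and 0 higher, beside 8.69% and 12% of all passing genes. After scaling to equal sums 3 of 14 were lower and 0 higher, beside 25.3% and 6.86%. Gata2, a regulator of early mast cells, was at 66.23 and 141.93 in the limb and Lmo4 at 167.13 and 27.13, and skin listed both at 0. Skin also listed at 0 the 26 genes that were high in every other library, and whether these zeros are failed estimates was not tested. Mitf, the mast cell regulator, read 8.94 in the E14.5 limb and 2.34 in skin, without a call.

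Of the 14 other Mas-related rows, 6 reached an FPKM of 1 in any library. Mrgprb8, the next neighbour of Mrgprb1 at 170 kb from the start of Mrgprb2, was listed at 0 in 5 libraries and at 6.48 in skin (64 fragments, 4.99 to 8.28 FPKM). Mrgpra4, farther along the cluster, read 0.17 in the E14.5 limb and 1.74 in skin, and Mrgprx1 0.28 in skin. In skin, Mrgprb8 and the trio, 4 neighbours, had the highest values among the 12 measured genes of the cluster. Coding sequences of Mrgprb8 and the trio were 69.5% to 72.5% identical, and its promoter window held no TGACTCA.

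Other family rows had another pattern. Mrgpre, outside the cluster, read 0.02 in EMPs, 0.07 in the MAC library, 1.09 in liver MCPs, 3.39 in the earlier and 4.34 in the later limb library, and 6.29 in skin. Mrgpra2a was at 7.54 in EMPs and 9.31 in the MAC library, and at most 0.24 elsewhere. Mrgpra2b, a close copy in which 85.3% of the stretches of 50 bases also occur in Mrgpra2a, so that reads cannot be assigned with certainty, was at 11.02 and 4.28 there, and at most 0.23 elsewhere. Mrgpra9 read 0.88 in liver MCPs, 0.56 in the earlier and 1.11 in the later limb library, with 0 in skin, and Mrgpra1 at most 0.53. Mas1, Mrgpra3, Mrgpra6, Mrgprf, Mrgprg and Mrgprh stayed at or below 0.25 in all 6 libraries. Mrgprb3, Mrgprb4, Mrgprb5 and Mrgprd are not analysed here. The genes that border the cluster did not share the skin pattern, Ptpn5 at 0.14 or less in all libraries and Zdhhc13 at 7.05, 0, 0, 3.11, 8.3 and 0.32.

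**Figure D4:**
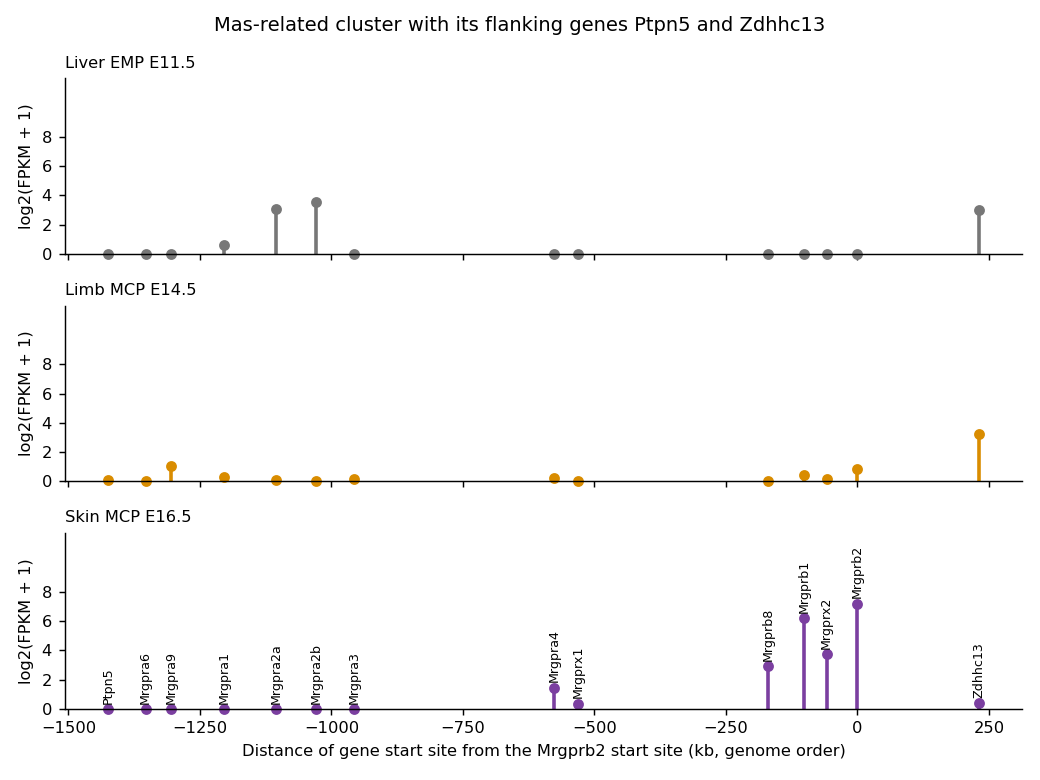
Log2(FPKM + 1) of each measured gene of the Mas-related cluster and of its flanking genes Ptpn5 and Zdhhc13, by distance of its start site from that of Mrgprb2 in kb, in liver EMPs, limb MCPs at E14.5 and skin MCPs at E16.5. In skin the values rise at Mrgprb8, Mrgprb1, Mrgprx2 and Mrgprb2 (6.48, 71.91, 12.2 and 144.92 FPKM), while EMPs show Mrgpra2a and Mrgpra2b (7.54 and 11.02).

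Genes with the most similar profile were ranked by Pearson r of log2(FPKM + 1) over the 6 libraries, among 3819 genes at 10 or more in any library. For Mrgprb1 these were Mrgprx2 (r = 0.9994), Mrgprb2 (0.9988), Hs3st3a1 (0.9986), Lgals8 (0.9948), a galectin gene, and Tpp1 (0.9865), a lysosomal peptidase gene. For Mrgprb2 they were Hs3st3a1 (0.9994), Mrgprb1, Lgals8 (0.9977), Mrgprx2 (0.9969) and Tpp1 (0.9885). For Mrgprx2 they were Mrgprb1, Mrgprb2, Hs3st3a1 (0.9961), Lgals8 (0.9906) and Ccny, a cyclin gene (0.9833). These values have 6 points and rest on the skin library, which all profiles share. Over the 5 other libraries r of Mrgprb1 was 0.992 with Hs3st3a1, 0.986 with Lgals8, 0.979 with Mrgprb2, 0.939 with Mrgprx2 and 0.670 with Tpp1. These r values rest in turn on the E14.5 limb, where Mrgprb1 read 0.34 FPKM, against at most 0.02 in the liver and the E11.5 limb. That limb value is 16 fragments on its longest transcript and 1 on its shortest, so they are weak as a description of likeness. Of this group Hs3st3a1 had the level closest to Mrgprx2, with 0.03 FPKM in the E11.5 limb, 0.38 in the E14.5 limb, 13.31 in skin and 0 in the liver.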

How the data were processed

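Bulk RNA of sorted cells was sequenced on an Illumina HiSeq platform, per the labels' protocols. The authors deposited 1 table of FPKM values with 2 decimals. The submitters' processing notes name Bowtie2, RSEM and the mm10 (GRCm38) build, and tool versions are not stated there. FPKM is fragments per transcript length and library size, and RSEM shares out fragments that fit several genes. Of 17913 rows, 4 with a repeated name were dropped.

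Differences of log2(FPKM + 1) were taken, and no p-value was computed with 1 library per group. Depth was estimated from the step size of FPKM over 1409 genes with a single transcript of 600 to 2500 bases. Of usable values, 77.9% to 82.6% came within 0.2 of a whole fragment, against 40% by chance at a depth fixed in advance. The depth used was the one with the highest share on a grid, and 40% is not the chance level of such a maximum. The method was tested on simulated data. Intervals are exact (Poisson, and Clopper-Pearson for ratios, 95%). Transcripts were from GENCODE M21 (GRCm38), and the length used by the authors is unknown.

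Named were the 3 receptors, their family, marker genes, up to 4 called genes per list (or the 2 largest differences where none was called between skin and the E14.5 limb) and the 5 genes most alike. Values of further genes were chosen after they had been seen and serve as context. Members and lists were chosen with earlier results of these data known. Alternatives were pseudocounts of 0.1 and 5, no filter or 30 FPKM, equal sums (TPM) and median-of-ratios scaling. Python 3.11.15, pandas 2.3.3, scipy 1.17.1 and Biopython 1.88 were used.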

Additional observations from a re-analysis of the deposited data

How the results depend on the processing

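The receptors had 18 differences and 6 alternatives each. In both skin comparisons 32 of 36 recomputed differences kept direction and side of the threshold, 4 were weaker and none reversed. The other 72 carry little weight, since 24 were 0 throughout and in 48 the receptors lay below the FPKM needed for a call. The 4 were all Mrgprx2. With a pseudocount of 5 it differed by 1.75 log2 from the E14.5 limb and 1.78 from the E11.5 limb, and an FPKM minimum of 30 leaves it out while its differences stay 3.585 and 3.72. Over all alternatives skin exceeded the E14.5 limb by 3.85 to 8.03 for Mrgprb1, 4.69 to 8.07 for Mrgprb2 and 1.75 to 6.45 for Mrgprx2.

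Genes called moved more. For skin against limb E14.5, skin against limb E11.5, limb E14.5 against E11.5, limb against liver MCPs, liver MCPs against EMPs and liver MCPs against the MAC library, the counts were 971, 1038, 123, 101, 164 and 316. They became 412, 465, 65, 30, 65 and 149 with a pseudocount of 5. Without a filter they were 1804, 1939, 299, 277, 294 and 564, and with an FPKM of at least 30 they were 380, 389, 59, 33, 73 and 146. As TPM, where more genes pass the filter, they were 2703, 3233, 822, 749, 699 and 1203. Of 140 genes on the lists, 16 were called between skin and the E14.5 limb, and 6 with a pseudocount of 5, 7 with an FPKM minimum of 30 and 27 as TPM. Median-of-ratios scaling gave 639 for skin against limb E14.5. There the lower share of calls went from 95% to 42.1% and, as TPM, to 78.7%, and the median of all genes passing the filter from −1.42 log2 to −0.09 and −0.72. Of the 15 most alike genes named for the 3 receptors, 5 were named again by Euclidean distance. Fragment numbers limit every receptor value outside skin. No paired analysis was possible because each group held 1 library.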
